A study of Mus musculus with 12 samples.

Results

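Calcium and phosphate absorption genes were followed in RNA from mouse small intestine. The set held 8 genes chosen by symbol, namely Vdr, Trpv6, S100g, Atp2b1, Cyp24a1, Slc34a2, Slc20a1 and Slc20a2, and 7 of the 8 matched a row among the 17175 genes of the table. Cyp24a1, which encodes the enzyme that inactivates vitamin D hormone, is not analysed here. The 4 groups were distal and proximal small intestine of mice labelled Bmpr1a cKO and distal and proximal small intestine of wild-type (WT) mice, with 3 libraries in each group. Bmpr1a encodes a bone morphogenetic protein (BMP) receptor, and cKO stands for conditional knockout, so both cKO groups are labelled as carrying a Bmpr1a deletion and neither WT group is. The series asks how epithelial BMP signalling relates to villus length along the gut. The labels used here give neither the driver of the deletion nor the strain, the age or the exact position of the segments.

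Vitamin D hormone acts through the vitamin D receptor, Vdr, a nuclear receptor that pairs with retinoid X receptors and raises transcription of calcium transport genes. Calcium crosses an enterocyte in steps: it enters at the apical membrane through the channel Trpv6, is carried through the cytosol by calbindin-D9k, the product of S100g, and is pumped out at the basolateral membrane by the calcium ATPase Pmca1, the product of Atp2b1. Phosphate enters with sodium through Slc34a2 (NaPi-IIb), the main apical carrier of the mouse ileum, and through the more widely expressed carriers Slc20a1 (PiT1) and Slc20a2 (PiT2). Active calcium uptake is best known from the duodenum.

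Values are scaled read counts as deposited, in which a gene with 0 reads stands at the step of its library, 0.83 to 1.22, and SDs are over n = 3 libraries. Depth was 11242024 to 17722756 recovered reads per library, and the labels do not state whether libraries of 1 group are from different animals. The p-values therefore measure only the spread among these samples, which for WT groups may be technical. Bmpr1a over the whole gene had 833 to 1087 in cKO proximal against 772 to 1029 in WT proximal libraries, and since such a count takes in exons outside a deleted part it does not check the labels. Id1, a target of BMP signals, had 112 to 232 over the 6 cKO libraries against 972 to 1650 over the 6 WT libraries, and Smad6, another target, was likewise separated. Both cKO libraries numbered 1 held 0 reads of 4 Y-linked genes, which summed to 1251 to 2390 reads in every other library, so each cKO group held more than 1 animal. By these reads sex was mixed in each cKO group, while every WT library held Y-linked reads. Sex was thus not balanced between genotypes in any cKO to WT comparison. Mitochondrially encoded genes took 9.75% to 27.7% of reads in cKO libraries and 17.4% to 37.7% in WT libraries. The summed level of 8 epithelial markers was 257969 to 368299 in cKO distal, 284380 to 305567 in cKO proximal, 158236 to 291870 in WT distal and 301817 to 354689 in WT proximal libraries. These 8 include Alpi, an alkaline phosphatase gene, with means of 5277 in cKO distal and 73292 in cKO proximal libraries. In WT the means of Alpi were 5777 distally and 88117 proximally, so the sums do not compare epithelial content between segments. Summed myeloid markers (6 of 6 measured) were 3975 to 6462 in cKO distal against 5592 to 24647 in WT distal libraries, and 3200 to 4302 in cKO proximal against 9898 to 17306 in WT proximal libraries. Summed fibroblast markers (5 of 5) spanned 1943 to 5374 in cKO and 2002 to 23574 in WT libraries. Smooth muscle markers summed to 36 to 425, with Myh11, Tagln and Cnn1 at 0 reads in at least 1 library. The endothelial marker Cdh5 and the glial marker S100b were likewise at 0 reads in at least 1 library. In bulk RNA, fewer cells of a type and less RNA per cell cannot be told apart.

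Vdr (ENSMUSG00000022479, chromosome 15, 97854425 to 97910630, minus strand, mm10) was read at high level in all libraries and was lower distally than proximally in WT. Its scaled count was 5619, 7102 and 3418 in cKO distal, 7555, 8803 and 7698 in cKO proximal, 2905, 4142 and 4416 in WT distal and 7814, 9484 and 9544 in WT proximal libraries. The segments did not overlap in either genotype, while the cKO and WT libraries overlapped within each segment. The receptor gene fell distally in WT (log2 fold change -1.24, SE 0.26, limma adjusted p = 0.00348). Among cKO libraries the distal to proximal difference did not pass (-0.64, SE 0.26, limma adjusted p = 0.145), and the test of the difference between the genotypes did not pass either (0.61, SE 0.37, limma adjusted p = 0.509). Between genotypes the log2 fold change of Vdr was -0.16 in the proximal segment (95% interval -0.71 to 0.40, limma adjusted p = 0.75) and 0.45 in the distal segment (-0.10 to 1.01, limma adjusted p = 0.224). The distal value passed when cKO distal library 3, the lowest of that group, was left out (0.75, limma adjusted p = 0.0239).

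**Figure D1:**
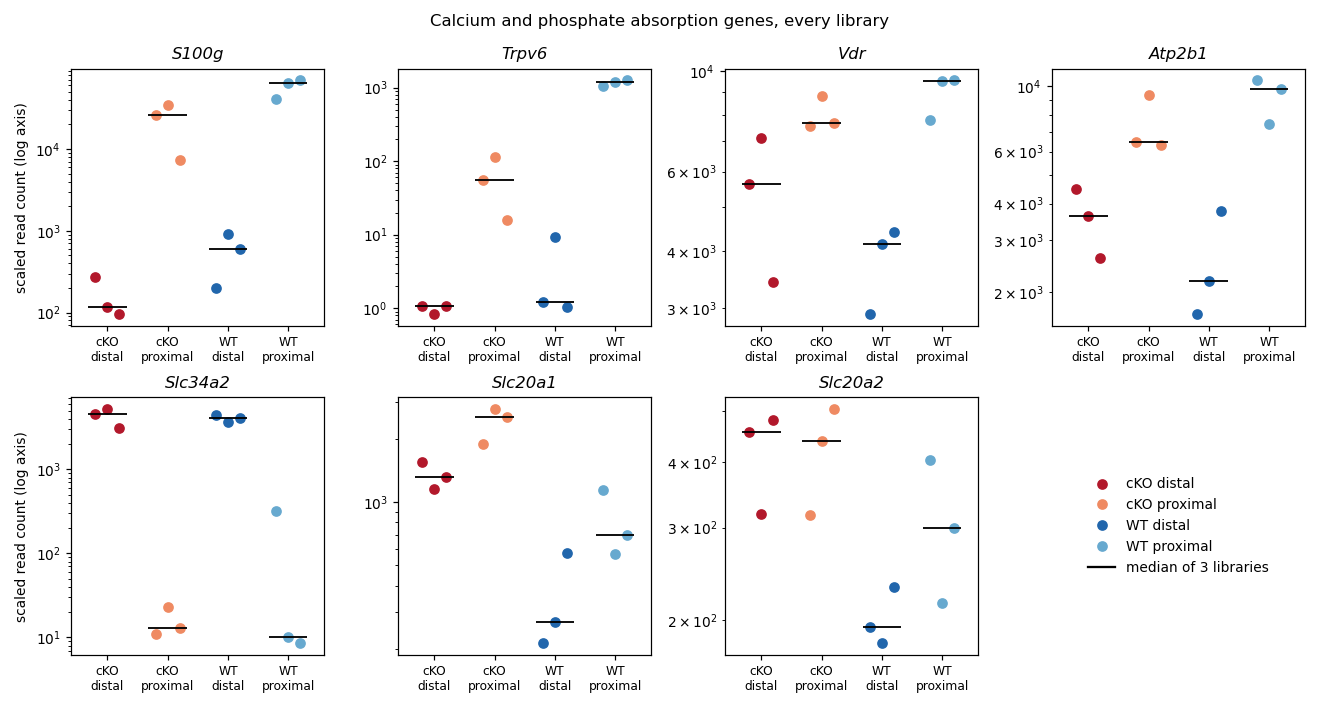
Scaled read count (log axis) of the 7 measured calcium and phosphate absorption genes in every library, by group; points are libraries numbered 1 to 3 from left to right and the line is the median of 3. S100g and Trpv6 are higher in proximal than in distal libraries of each genotype, with Trpv6 at only 15.8 to 113 in cKO proximal libraries. Slc34a2 is the reverse, with 1 WT proximal library at 323, and Slc20a1 is higher in cKO than in WT in each segment.

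Trpv6, the apical calcium channel gene (ENSMUSG00000029868, chromosome 6, 41620624 to 41636405, minus strand), was the member with the largest fall in the cKO proximal segment among the 7 measured. It had 55.5, 113 and 15.8 in cKO proximal libraries, against 1043, 1212 and 1262 in WT proximal libraries. All 3 cKO libraries lay below the WT range, at 4.74%, 9.67% and 1.35% of the WT proximal mean of 1172. The fall was 4.61 on the log2 scale (log2 fold change -4.61, SE 0.66, limma adjusted p = 0.00133), and it passed in each of the 21 alternative analyses (-5.24 to -3.86, highest adjusted p = 0.0321). Per length, the level was 0.888 ± 0.689 RPKM in cKO proximal and 17.5 ± 1.89 RPKM in WT proximal libraries (SD, n = 3 each).

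In the distal segment Trpv6 was close to unread. The cKO distal libraries held 0 reads each, and the WT distal libraries held 0, 8 and 0 reads, so both groups on average lay at or under a floor of 3 reads per library and no fold is given between them. Along the intestine, the channel gene fell distally in WT, with 8 reads over the 3 distal libraries and 3242 over the 3 proximal ones (limma adjusted p = 1.29e-06). With so few distal reads its size depends on the scale, the log2 fold change being -8.34 on log2(value + 1) and -9.10 to -6.46 over the alternatives. The cKO level was at least 20.5-fold lower in distal than in proximal libraries, with the distal group set at the floor (limma adjusted p = 0.000412). The difference between the genotype effects, distal minus proximal, was 3.75 (SE 0.94, limma adjusted p = 0.0828), and with the sample name as a block the limma adjusted p was 0.0314 (SE 0.80). With distal libraries at 0 reads this value depends on the scale: it was -0.18 in edgeR (adjusted p = 0.888) and 0.42 in DESeq2 (adjusted p = 0.956).

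S100g, the calbindin-D9k gene (ENSMUSG00000040808, X chromosome, 162961992 to 162964599, minus strand), was the most abundant member per length in the proximal segment and fell steeply toward the distal end. It had 270, 116 and 95.7 in cKO distal, 26051, 34318 and 7310 in cKO proximal, 200, 924 and 591 in WT distal and 40953, 63784 and 69219 in WT proximal libraries. The segments were more than an order of magnitude apart in both genotypes. The distal fall was -7.01 in cKO (SE 0.59, limma adjusted p = 3.97e-06) and -6.88 in WT (SE 0.59, limma adjusted p = 2.73e-06), a difference of -0.12 with a 95% interval of -1.93 to 1.68.

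Between genotypes S100g was lower in cKO on both sides of the intestine, but only the distal difference passed, narrowly. The unadjusted limma p was 0.0178 proximally and 0.0118 distally, and the adjustment runs over all genes, of which 8.26% and 25% were called. The split call is thus no difference between segments, the interaction being -0.12 (limma adjusted p = 0.972). Proximally the libraries did not overlap and stood at 44.9%, 59.2% and 12.6% of the WT mean of 57985, yet the test did not pass (log2 fold change -1.60, SE 0.59, limma adjusted p = 0.114). The value was -0.92 without cKO proximal library 3 (adjusted p = 0.355), and DESeq2, which called 13.4% of all genes here, gave adjusted p = 0.047. Distally S100g fell (-1.72, SE 0.59, limma adjusted p = 0.048) although the libraries overlapped. That call was lost in 9 of 21 alternatives: with a pseudocount of 10, with the mitochondrial share as covariate, and without any of cKO distal 2 or 3, cKO proximal 1, WT distal 2 or 3, or WT proximal 2 or 3 (highest adjusted p = 0.205, without WT distal 2). In the cKO proximal group, library 3 was lowest and library 2 highest for S100g, Trpv6 and Atp2b1, the last at 68.2% and 101% of its WT proximal mean. Vdr was highest in library 2 as well, at 98.4% of its WT proximal mean, with 84.4% in library 1 and 86% in library 3.

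The sequence before the start of transcription is shown for Trpv6 and S100g because both genes were proximal and lower in cKO proximal libraries in every library. Each run is the 250 bases before the RefSeq start (GRCm38.p6, the same assembly as mm10), 5′ to 3′. Capitals mark AGGTCA or its reverse complement, a core element of nuclear receptor sites, and in Trpv6 also CAAAGTCC or its reverse complement, the core recognised by hepatocyte nuclear factor 4.
Trpv6 (chr6:41636406-41636655, minus strand): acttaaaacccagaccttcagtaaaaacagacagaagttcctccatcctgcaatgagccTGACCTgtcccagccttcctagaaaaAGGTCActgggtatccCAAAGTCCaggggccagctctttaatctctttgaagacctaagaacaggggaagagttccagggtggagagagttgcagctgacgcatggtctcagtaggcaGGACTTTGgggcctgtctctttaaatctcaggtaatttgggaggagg
S100g (chrX:162964600-162964849, minus strand): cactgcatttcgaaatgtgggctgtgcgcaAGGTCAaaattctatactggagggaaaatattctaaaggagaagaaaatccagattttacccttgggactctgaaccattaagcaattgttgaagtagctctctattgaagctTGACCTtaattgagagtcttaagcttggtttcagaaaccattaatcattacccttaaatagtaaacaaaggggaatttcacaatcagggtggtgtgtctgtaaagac
Both windows held AGGTCA at 2 positions. Of 32851 promoter entries of this length, 14% held it at least once and 1.36% at 2 or more positions. Trpv6 also held CAAAGTCC at 2 positions, starting at -149 and -47, which only 3 of the 32851 entries (0.00913%) did, with 1.2% holding it once or more. Exact direct repeats of AGGTCA or AGTTCA with a 3-base gap, forms of the textbook vitamin D receptor element, were not among the letters of either window. These patterns matched 2, 0 and 1 of the 32851 entries, so their absence does not set these windows apart. GGTTCA, also of nuclear receptors, was searched only singly and not as a spaced repeat. It was found in S100g at -149, and 8.85% of entries held it at least once. Of the caudal-type strings searched, TTTAC was found in Trpv6 at -230 and in S100g at -165, -47 and -8 (28.3% of entries held it at least once), and neither TTTATG nor TTTATT was found in them.

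**Figure D2:**
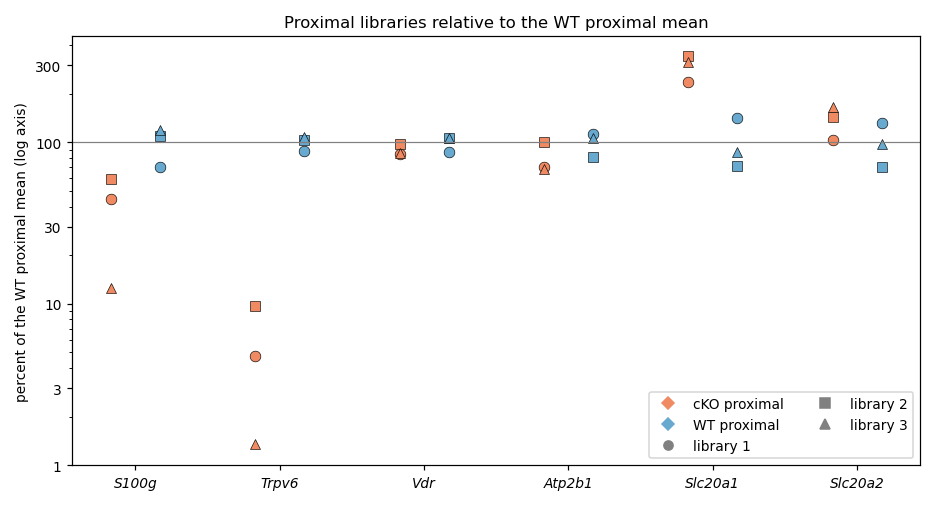
Level of 6 members in proximal libraries as a percent of the WT proximal mean (log axis), cKO left and WT right of each gene name, with a marker shape for each library number; Slc34a2 is left out because 1 WT library sets its mean. Trpv6 stood at 1.35% to 9.67% and S100g at 12.6% to 59.2% in cKO, Vdr and Atp2b1 at 68.2% to 101%, and Slc20a1 at 237% to 345%.

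Atp2b1, the gene of the basolateral calcium pump (ENSMUSG00000019943, chromosome 10, 98914406 to 99026143, plus strand), was lower distally in both genotypes. It had 4465, 3628 and 2624 in cKO distal, 6479, 9308 and 6293 in cKO proximal, 1688, 2185 and 3784 in WT distal and 10463, 7446 and 9759 in WT proximal libraries. The pump gene fell distally in cKO (-1.05, SE 0.29, limma adjusted p = 0.0354) and in WT (-1.92, SE 0.29, limma adjusted p = 0.000406), with no overlap between segments in either genotype. The cKO call was lost without both cKO libraries numbered 1 and without any 1 of cKO distal 2 or 3, cKO proximal 1, 2 or 3, or WT distal 2 (highest adjusted p = 0.131). Between genotypes the log2 fold change was -0.33 in the proximal segment (95% interval -0.97 to 0.30, limma adjusted p = 0.516) and 0.54 in the distal segment (-0.10 to 1.17, limma adjusted p = 0.206), where WT distal library 3 was highest of its group. Without that library the distal value was 0.86 (adjusted p = 0.028).

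Slc34a2, the apical phosphate carrier gene (ENSMUSG00000029188, chromosome 5, 53038081 to 53071664, plus strand), ran opposite to the calcium genes and was distal in both genotypes. It had 4540, 5206 and 3120 in cKO distal, 11.1, 23.3 and 13 in cKO proximal, 4486, 3652 and 4135 in WT distal and 323, 10.1 and 8.6 in WT proximal libraries. WT proximal library 1 stood far above the other proximal libraries and still below every distal one. The carrier gene rose distally by 8.03 in cKO (SE 0.92, limma adjusted p = 5.95e-05) and by 6.97 in WT (SE 0.92, limma adjusted p = 0.000134), both log2 fold changes. In the distal segment its genotype difference was 0.04 with a wide 95% interval of -1.94 to 2.02 (limma adjusted p = 0.979). The fit shares 1 estimate of spread over the 4 groups, so this interval takes in WT proximal library 1. The distal libraries themselves stood at 4288 ± 1065 in cKO and 4091 ± 419 in WT (SD, n = 3 each). In the proximal segment it was -1.02 (-3.00 to 0.96, limma adjusted p = 0.528), and without WT proximal library 1 it was 0.64 (adjusted p = 0.208). Without that library the WT segment difference was 8.63 and the difference between genotype effects -0.60, against 1.06 with it.

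Slc20a1, which encodes PiT1 (ENSMUSG00000027397, chromosome 2, 129198764 to 129211616, plus strand), rose in cKO in both segments. It had 1550, 1152 and 1309 in cKO distal against 214, 268 and 570 in WT distal libraries, and 1894, 2765 and 2540 in cKO proximal against 1138, 569 and 696 in WT proximal libraries. Every cKO library lay above every WT library, also across segments. The log2 fold change was 2.05 distally (SE 0.32, limma adjusted p = 0.000523) and 1.63 proximally (SE 0.32, limma adjusted p = 0.00936), with a difference of 0.42 between them (95% interval -0.56 to 1.41). The distal call passed in each of 21 alternatives (1.70 to 2.46), and the proximal call in 20, the exception being the mitochondrial share as covariate (1.30, adjusted p = 0.142). Beside it, 7 of 7 B and plasma cell markers fell in cKO distally and 4 of 7 proximally. Of 6 myeloid markers 3 fell in each segment, and of 8 epithelial markers 3 rose distally and 1 proximally. In each segment 1 of 4 endothelial and 1 of 4 Paneth cell markers fell. Besides, 1 of 5 T cell markers fell distally and 1 of 3 enteroendocrine markers proximally. No fibroblast, smooth muscle or enteric neuron and glia marker passed (0 of 5, 0 of 5 and 0 of 2). Of all genes 13.3% rose and 11.7% fell distally, and 4.21% rose and 4.05% fell proximally. The part of these cell types in the Slc20a1 result was not tested. The transcript 9830144P21Rik lies on the opposite strand and shares 452 exon bases with Slc20a1, and Gm4430, not analysed here, shares 280. The transcript also rose in cKO, to 27.9 ± 6.85 in distal and 45.3 ± 15.1 in proximal libraries, against 9.31 ± 2.82 in WT distal and 14 ± 2.45 in WT proximal libraries (SD, n = 3 each). Its distal call was lost without WT distal 1, its proximal call without cKO proximal 2 or 3 or WT proximal 2 or 3, and both with the mitochondrial share as covariate (highest adjusted p = 0.15). Without strand, reads of the pair cannot be told apart.

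Along the intestine Slc20a1 passed the test in WT only, and the difference between genotypes given above did not pass. In WT it fell distally (-1.26, SE 0.32, limma adjusted p = 0.0122), although WT distal library 3 (570) overlapped WT proximal library 2 (569). That call was lost without WT distal 1, WT distal 2 or WT proximal 1 (highest adjusted p = 0.0585). In cKO the value was -0.84 (SE 0.32, limma adjusted p = 0.125), and leaving out WT distal library 3 gave adjusted p = 0.0392 in limma.

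Slc20a2, which encodes PiT2 (ENSMUSG00000037656, chromosome 8, 22476788 to 22569612, plus strand), was the phosphate carrier gene with the narrowest range. It had 457, 319 and 481 in cKO distal, 317, 439 and 504 in cKO proximal, 194, 181 and 231 in WT distal and 404, 216 and 299 in WT proximal libraries. Distally it rose in cKO with no overlap (log2 fold change 1.03, SE 0.25, limma adjusted p = 0.00896), a call lost only with the mitochondrial share as covariate among 21 alternatives (1.09, adjusted p = 0.0729). Proximally the libraries overlapped (0.48, 95% interval -0.07 to 1.02, limma adjusted p = 0.261). The segments did not differ past the threshold in cKO (0.00, -0.54 to 0.54) or in WT (-0.56, -1.10 to -0.02, limma adjusted p = 0.129). Smim19, on the opposite strand with 95 shared exon bases, stood at 120 ± 1.49 in cKO distal and 121 ± 18.7 in WT distal libraries.

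The same stretch before the start is shown for Slc34a2, the distal member, and Slc20a1, the member that rose in cKO in both segments. Capitals mark GGCGCC, a string bound by BMP-activated SMADs, in Slc34a2, and CACGTG, the E-box, with AGGTCA in Slc20a1.
Slc34a2 (chr5:53049103-53049352, plus strand): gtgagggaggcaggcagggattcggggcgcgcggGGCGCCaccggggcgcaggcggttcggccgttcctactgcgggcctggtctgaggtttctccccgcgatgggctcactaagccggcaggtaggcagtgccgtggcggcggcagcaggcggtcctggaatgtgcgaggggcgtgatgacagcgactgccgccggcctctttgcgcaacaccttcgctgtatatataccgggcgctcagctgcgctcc
Slc20a1 (chr2:129198523-129198772, plus strand): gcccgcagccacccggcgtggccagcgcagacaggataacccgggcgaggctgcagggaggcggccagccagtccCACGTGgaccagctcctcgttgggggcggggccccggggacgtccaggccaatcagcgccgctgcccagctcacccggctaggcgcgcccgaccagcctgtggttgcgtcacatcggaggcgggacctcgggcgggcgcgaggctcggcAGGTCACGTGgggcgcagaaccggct
Slc34a2 held GGCGCC at 1 position, and 9.59% of entries held it at least once. Slc20a1 held CACGTG at 2 positions (0.429% of entries held 2 or more), the second overlapping AGGTCA, and no GGCGCC. The GC content was 69.6% in Slc34a2 and 75.2% in Slc20a1, against 38.4% in S100g and 49.6% in Trpv6. In all, 17 strings were searched on both strands. Besides those named they were CAAAGT of hepatocyte nuclear factor 4, GATAAG as well as AGATAA of GATA factors, the TATA box string TATAAA and the hepatocyte nuclear factor 1 palindrome. A match describes letters and shows no binding, and a missing match says only that those letters are not in the window. Of the 8 genes, 6 had a promoter entry, Slc20a2 and Cyp24a1 being named only. GENCODE M21 starts Slc34a2 upstream of the RefSeq start used here.

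**Figure D3:**
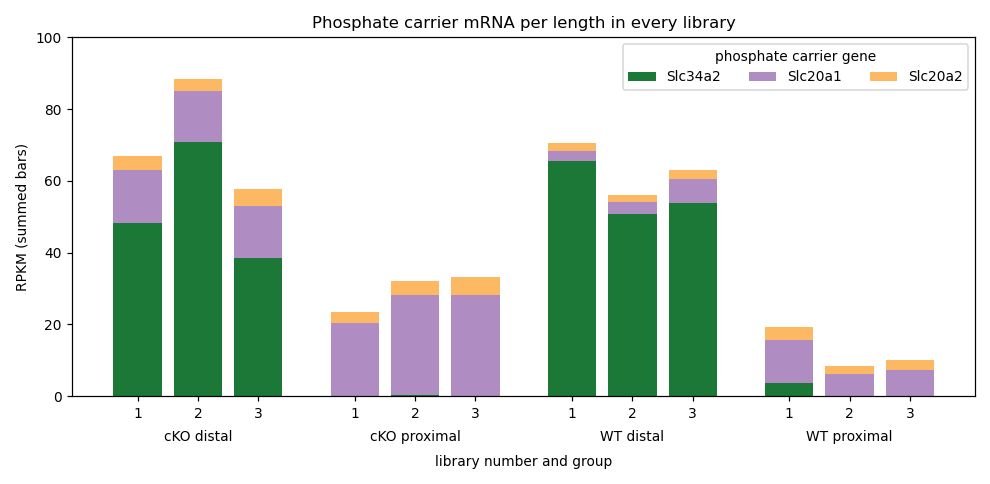
RPKM of Slc34a2, Slc20a1 and Slc20a2, stacked, in each of the 12 libraries by group. Distal bars are mostly Slc34a2 in both genotypes, proximal bars mostly Slc20a1, and the Slc20a1 part is taller in cKO than in WT of the same segment.

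Compared per length, the phosphate carrier genes changed places between segments. RPKM here are recovered reads scaled to the length of merged GENCODE M21 exons and to the library total. Slc34a2 made up 66.6% to 80.1% of the summed RPKM of the 3 carriers in cKO distal and 85.6% to 92.8% in WT distal libraries. It made up 0.449% to 0.778% in cKO proximal and 0.862% to 19.3% in WT proximal libraries, the top value being library 1. Slc20a1 held 84.5% to 86.9% of the sum in cKO proximal against 61.2% to 73.7% in WT proximal libraries, and 15.9% to 25.1% in cKO distal against 3.96% to 10.6% in WT distal libraries. The ranges of the Slc20a1 share did not overlap between genotypes in either segment. The sum itself was 23.3 to 33.2 RPKM in cKO proximal against 8.29 to 19.3 RPKM in WT proximal libraries, and 57.7 to 88.5 RPKM in cKO distal against 56.1 to 70.4 RPKM in WT distal libraries. These shares were not tested.

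The order of the members per length was led by S100g in proximal libraries, at 2731 ± 1603 RPKM in cKO and 7126 ± 1900 RPKM in WT (SD, n = 3 each). Vdr followed at 83.8 ± 4.17 RPKM in cKO proximal and 93.3 ± 11.4 RPKM in WT proximal libraries, then Atp2b1 at 28.4 ± 5.23 and 35.6 ± 5.52 RPKM. In cKO proximal libraries Slc20a1 (25.4 ± 4.52 RPKM) did not separate from Atp2b1 beyond the spread, and Trpv6 lay below Slc20a2 (3.99 ± 0.987 RPKM). In WT proximal libraries Trpv6 lay above Slc20a1 (8.41 ± 3.01 RPKM) and Slc20a2 (2.88 ± 0.848 RPKM). In distal libraries Slc34a2 (52.5 ± 16.7 RPKM in cKO, 56.7 ± 7.69 RPKM in WT) and Vdr (58.7 ± 24.8 RPKM in cKO, 46.6 ± 7.81 RPKM in WT) did not separate beyond their spread. S100g there had 19.5 ± 9.23 RPKM in cKO and 81.5 ± 51.8 RPKM in WT.

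Counts over the set are given for each comparison. Between cKO and WT in the proximal segment 1 of the 7 measured members rose (Slc20a1) and 1 fell (Trpv6), where 8.26% of all genes tested were called (4.21% higher and 4.05% lower), with a median log2 fold change of -0.33 over the members and 0.08 over all genes. Over all genes 723 of 1418 calls were higher, against 567 of 1428 with TMM factors, 513 of 1290 in edgeR and 937 of 2304 in DESeq2. In the distal segment 2 rose (Slc20a1 and Slc20a2) and 1 fell (S100g), where 25% of all genes were called (13.3% higher and 11.7% lower), with medians of 0.45 and 0.06. Distal against proximal in cKO, 1 rose (Slc34a2) and 3 fell (S100g, Trpv6 and Atp2b1), with 10.5% of all genes called (4.16% higher and 6.36% lower) and medians of -0.84 and -0.02. Distal against proximal in WT, 1 rose (Slc34a2) and 5 fell (Trpv6, S100g, Atp2b1, Vdr and Slc20a1), with 24.1% of all genes called (11.9% higher and 12.2% lower) and medians of -1.26 and 0.04. For the difference between genotype effects, 0 of 7 passed in limma, edgeR and DESeq2, which called 0.576%, 0.344% and 3.46% of all genes, and 1 (Trpv6) had an unadjusted p under 0.05 in limma. With the sample name as block 1 of 7 passed (Trpv6), where 2.68% of all genes did. The comparisons that use the same libraries are not independent of each other. Markers of other cell types also passed between segments. Distally in cKO, 4 of 5 T cell and 1 of 3 enteroendocrine markers were lower and 2 of 4 Paneth cell markers were higher. Distally in WT, 3 of 5 T cell and 3 of 3 enteroendocrine markers were lower, and 3 of 4 Paneth cell and 6 of 7 B and plasma cell markers were higher. In each genotype 2 of 5 smooth muscle markers were higher distally, and 1 of 4 endothelial and 1 of 8 epithelial markers were lower. Summed B and plasma cell markers were 865 to 3784 in cKO distal, 966 to 3660 in cKO proximal, 15245 to 40458 in WT distal and 5910 to 13955 in WT proximal libraries. Their part in the segment differences was not tested.

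**Figure D4:**
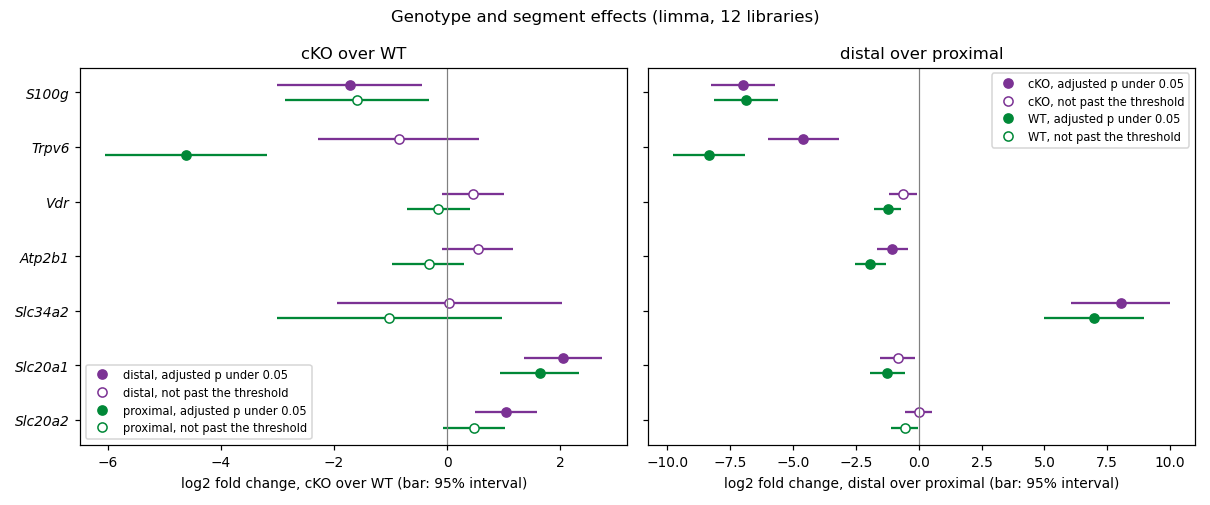
Log2 fold change of the 7 members with 95% intervals from limma over 12 libraries, cKO over WT at left (distal above proximal) and distal over proximal at right (cKO above WT); filled points had adjusted p under 0.05. Trpv6 lies at -4.61 in the proximal genotype comparison, Slc20a1 above 0 in both segments, and Slc34a2 alone lies far above 0 in the segment comparisons.

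Other genes of calcium transport were tested as a list of 20, of which 17 were measured. In the proximal segment 2 rose and 1 fell in cKO, where 4.21% of all genes rose and 4.05% fell. Cldn2, which encodes a cation-selective pore of the tight junction, stood at 2060 ± 569 in cKO proximal and 195 ± 53.8 in WT proximal libraries. Its log2 fold change was 3.39 (SE 0.29, limma adjusted p = 1.84e-05). Slc8a1, the sodium-calcium exchanger gene, fell to 31.8 ± 10.4 in cKO proximal libraries, against 133 ± 31.3 in WT (-2.05, adjusted p = 0.00743), a call lost with the mitochondrial share as covariate (adjusted p = 0.103). Its reads were few, 94 over the cKO proximal and 364 over the WT proximal libraries. The part of other cell types in the fall of Slc8a1 was not tested. Cldn12 rose (0.89, adjusted p = 0.0343), a call lost without any 1 of the cKO proximal libraries or WT proximal 2 or 3, without both cKO libraries numbered 1, and with the mitochondrial share as covariate (highest adjusted p = 0.362). In the distal segment 5 rose and 2 fell, where 13.3% of all genes rose and 11.7% fell. Cldn2 (1.57, adjusted p = 0.0017) and Cldn15, another cation pore gene (1.52, adjusted p = 0.00671), rose, Slc8a1 fell (-1.71, adjusted p = 0.00612), and Cldn12 rose again (0.96, adjusted p = 0.0088). Their distal calls were lost with the mitochondrial share as covariate, and those of Cldn12 and Cldn15 also without both cKO libraries numbered 1. The list medians were -0.12 proximally and 0.14 distally.

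Along the intestine the same list had 2 genes higher and 0 lower distally in cKO, against 4.16% and 6.36% of all genes. In WT it had 1 higher and 3 lower, against 11.9% and 12.2% of all genes. The 2 genes in cKO were Bspry (0.92, adjusted p = 0.0134) and S100a10, whose product binds Trpv6 (0.72, adjusted p = 0.0453). Both calls were lost without both cKO libraries numbered 1 and without single libraries, cKO distal 2 or cKO proximal 1 for Bspry, and cKO distal 1 or 2, cKO proximal 2 or 3, WT distal 2 or WT proximal 2 or 3 for S100a10 (highest adjusted p = 0.119 and 0.176). In WT Cldn2 was higher distally, at 941 ± 277 in WT distal and 195 ± 53.8 in WT proximal libraries (2.27, adjusted p = 0.000111). Casr, the calcium-sensing receptor gene, was lower at very low counts, with 1 read in all over the WT distal and 27 over the WT proximal libraries (limma adjusted p = 0.00127), and its log2 fold change ran from -4.60 to -0.85 over the alternatives. Cldn15 was lower as well (-1.49, adjusted p = 0.00761). Atp2b2, a second plasma membrane pump gene, was lower too (-1.56, adjusted p = 0.0406), a call lost in edgeR, with the mitochondrial share as covariate, without both cKO libraries numbered 1, and without any of WT distal 2 or 3, WT proximal 1 or 3, or cKO proximal 1 or 2 (highest adjusted p = 0.172).

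Of 16 other phosphate genes 12 were measured. In cKO against WT 0 passed proximally in limma and in edgeR, 2 in DESeq2 (Pdzk1 and Slc9a3r2), and 3 had an unadjusted p under 0.05 in limma (these and Slc17a4), named after their values were seen. Proximally limma called 8.26% of all genes and DESeq2 13.4%. In the distal segment 1 rose, where 13.3% of all genes did. That gene was Slc34a3, which encodes the carrier NaPi-IIc, known from the kidney, with 66.8 ± 12.9 in cKO distal and 16.3 ± 9.93 in WT distal libraries (2.11, SE 0.53, limma adjusted p = 0.0107). The call was lost without cKO distal 1, without WT distal 2, without both cKO libraries numbered 1 and with the mitochondrial share as covariate (highest adjusted p = 0.0823). Slc34a3 was also higher in distal than in proximal libraries, with 201 reads in cKO distal against 4 in cKO proximal libraries (adjusted p = 6.99e-05) and 42 in WT distal against 2 in WT proximal libraries (adjusted p = 0.00406). At these counts the size depends on the scale, the log2 fold change in cKO running from 2.63 to 5.63 over the alternatives and being as low as 1.09 in WT. Alpi, the intestinal alkaline phosphatase gene, fell distally in both genotypes, to 5277 ± 579 in cKO distal against 73292 ± 12465 in cKO proximal libraries and to 5777 ± 2583 in WT distal against 88117 ± 15960 in WT proximal libraries (-3.79 and -4.00, adjusted p = 4.13e-06 and 1.57e-06). In WT, Slc9a3, a sodium-proton exchanger gene (-1.40, adjusted p = 0.00864), and Xpr1, the phosphate exporter gene (-0.77, adjusted p = 0.0349), were lower distally as well. The Xpr1 call was lost without WT distal 1 or 2, WT proximal 1 or 3 or both cKO libraries numbered 1, and with the mitochondrial share as covariate (highest adjusted p = 0.132).

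Of 14 genes of vitamin D supply and partners of its receptor 11 were measured. In the proximal segment 0 passed between genotypes in limma and in edgeR, 1 in DESeq2 (Cubn), and 3 had an unadjusted p under 0.05 in limma (Cubn, Cyp27a1 and Pdia3), named after their values were seen. Of all genes limma called 8.26% proximally and DESeq2 13.4%. Distally 3 of 11 passed in limma, where 25% of all genes did. Pdia3 (0.94, adjusted p = 0.00772) and Cyp27a1, a sterol 27-hydroxylase (1.51, adjusted p = 0.0241), rose and the coactivator gene Ncoa3 fell (-0.59, adjusted p = 0.025) in cKO. Each of these calls was lost with the mitochondrial share as covariate and without both cKO libraries numbered 1, those of Cyp27a1 and Ncoa3 also without cKO distal 1 or WT distal 2, that of Cyp27a1 in edgeR and without cKO distal 3 or WT distal 1, and that of Ncoa3 without cKO distal 2. In cKO, Cubn, an endocytic receptor gene, was higher distally (3.71, adjusted p = 0.000598), with 8024 ± 2513 in distal and 608 ± 192 in proximal libraries, and the 25-hydroxylase gene Cyp2r1 was lower (-1.72, adjusted p = 0.0172), a call lost without cKO distal 1 or 2, cKO proximal 2 or 3 or both cKO libraries numbered 1 (highest adjusted p = 0.081). In WT 1 of 11 passed between segments in limma, where 24.1% of all genes did. That gene was Ncoa3 (0.69, adjusted p = 0.0112), and its call was lost without WT distal 2 (adjusted p = 0.0521).

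Of 3 other vitamin D responsive genes, all measured, 2 passed as lower distally in each genotype. Of all genes 6.36% were lower distally in cKO and 12.2% in WT. Slc30a10, a manganese exporter gene, was lower distally in cKO (-2.59, adjusted p = 0.000179) and in WT (-3.23, adjusted p = 1.69e-05). Cyp3a11, a drug-metabolising oxidase gene, was also lower distally in cKO (-2.18, adjusted p = 0.00103) and in WT (-4.32, adjusted p = 1.64e-06). The third gene, Abcb1a, did not pass between segments. Its distal libraries lay above the proximal ones in cKO (1.08, limma adjusted p = 0.203), while the value in WT was -0.74 (limma adjusted p = 0.317). Between genotypes 0 of the 3 passed proximally in limma, edgeR and DESeq2, and 0 had an unadjusted p under 0.05 in limma. Of all genes limma called 8.26% there and DESeq2 13.4%, and with 3 genes a count of 0 sets the list apart from neither share. In the distal segment Cyp3a11 (1.59, adjusted p = 0.00498) and the efflux pump gene Abcb1a (2.14, adjusted p = 0.00674) rose in cKO, where 13.3% of all genes rose. Both distal calls were lost with the mitochondrial share as covariate (adjusted p = 0.0865 and 0.134).

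Of 6 transcription factor genes reported at intestinal calcium genes, all measured, Cdx1, a caudal-type factor of the intestine, rose in cKO in both segments. It stood at 3261 ± 429 in cKO distal against 1707 ± 273 in WT distal libraries (0.94, adjusted p = 0.00109) and at 2062 ± 203 in cKO proximal against 1040 ± 41.3 in WT proximal libraries (0.98, adjusted p = 0.0033). The proximal call was lost with the mitochondrial share as covariate (adjusted p = 0.0504). Cdx1 was also higher in distal than in proximal libraries of cKO (0.66, adjusted p = 0.0194) and of WT (0.70, adjusted p = 0.00684), and the cKO call was lost without cKO distal 1 or 2, cKO proximal 1 or 3 or both cKO libraries numbered 1 (highest adjusted p = 0.186). Gata4, a factor of the proximal intestine, rose in cKO distally (0.82, adjusted p = 0.0201), a call lost without cKO distal 1 or 2, WT distal 1 or both cKO libraries numbered 1 and with the mitochondrial share as covariate (highest adjusted p = 0.439). Gata4 was lower in distal than in proximal libraries of cKO (-1.83, adjusted p = 0.000153) and of WT (-2.33, adjusted p = 1.19e-05).

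The genes whose levels were most like each member across the 12 libraries were ranked by Pearson's r of log2(value + 1) among 9301 genes, as a description over libraries that share groups and depth. For Trpv6 they were Ugt2b38 (0.966), Tnni1 (0.958) and Acat1 (0.953), and for S100g Pbld1 (0.984), Car2 (0.977) and Rps6ka5 (0.973). For Vdr they were Dld (0.985), Pdhb (0.985) and Sult1d1 (0.979). For Atp2b1 they were Rilp (0.983), Ogdh (0.982) and Sri (0.980). For Slc34a2 they were Arhgef10l (0.964), P2ry2 (0.963) and Mtmr11 (0.956). For Slc20a1 they were Slc12a8 (0.986), Ei24 (0.978) and Mpzl3 (0.977), and for Slc20a2 Asph (0.956), Pvr (0.942) and Cnpy1 (0.937). No gene was named for more than 1 member.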

How the data were processed

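RNA of proximal and distal small intestine was sequenced in 12 libraries. Per the labels' protocols, Trizol was used for RNA and a NuGEN Ovation V2 kit for cDNA. The submitters' processing notes name STAR, DESeq2 1.28.1 and mm10; the counter, annotation, strand setting and low-count filter are not given in the sources used here. The authors deposited 1 table of 17175 genes whose 12 sample columns hold a signal divided by library size. Within 1e-06 steps, 100% of the 206100 deposited values were whole multiples of the lowest value in their column, and each was read as (reads + 1) / size factor, which gives whole reads. The deposited log2 fold changes, their standard errors, the Wald statistic (a score), the p-values and the baseMean signal belong to the authors' contrast, which matched the log2 ratio of cKO proximal to WT distal (median absolute difference 0.00169) and were not used.

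The log2(value + 1) of all 12 libraries was fitted with limma 3.58.1 (R 4.3.3) as 4 group means with trended moderation, without a further filter. Calls had a Benjamini-Hochberg adjusted p under 0.05 over 17175 genes. Adjusted p-values in the text are from this fit unless another tool is named. On this scale folds of genes with few reads are understated. Counts of recovered reads went into edgeR 4.0.16 (quasi-likelihood) and DESeq2 1.42.0 as alternatives. The other alternatives were TMM factors, a pseudocount of 10, a minimum of 1 CPM in 3 libraries, the mitochondrial share as covariate, the sample name as a fixed or random block, and leaving out both cKO libraries numbered 1 or each of the 12 libraries in turn, 21 in all. The procedures were tested on simulated data. Gene positions, exon lengths and overlaps came from GENCODE M21, where 17158 of the gene identifiers were found, and promoter sequences from RefSeq on GRCm38.p6. The members, gene lists and tests were chosen with earlier results of these data known. In each list the called genes with the smallest p were named, up to 4 per comparison, and all members were named.

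Between segments, libraries of one sample name (WT1, KO1 and so on in the labels) deviated together from their group means, with correlations of 0.158, 0.215 and 0.323 in cKO and 0.314, 0.173 and 0.308 in WT, so sample names pair the segments. The pairing is used as an alternative and printed where it changes a call.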

Additional observations from a re-analysis of the deposited data

How the results depend on the processing

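Of 35 member results (7 genes in 5 comparisons), 15 were called, 10 of these kept their call in all 21 alternatives, 5 lost it in at least 1, 5 others gained a call in at least 1, and 0 reversed. The genes called over the whole table moved more. In DESeq2 the counts were 2304 proximally between genotypes (1418 in limma), 2762 between segments in cKO (1806) and 594 for the interaction (99). With the mitochondrial share as covariate they were 292 proximally and 1356 distally (4297 without it), with 1 and 1 members called, against 2 and 3. Without both cKO libraries numbered 1 they were 766 proximally, 2160 distally, 862 between segments in cKO and 2 for the interaction. The interaction gave 198 genes with a pseudocount of 10 and 59 in edgeR, with 1 member called under the pseudocount. Leaving out 1 library at a time gave 580 to 1700 genes proximally (over 1.5 times fewer without any cKO proximal library or WT proximal 2 or 3), 2466 to 4954 distally (without cKO distal 1 or WT distal 2), 2741 to 4441 between segments in WT (4137 with all; WT distal 2), 1031 to 1938 in cKO (cKO proximal 1 or 3) and 7 to 266 for the interaction, the lowest without WT distal 2 and the highest without WT distal 3. Members called then numbered 2 proximally, 2 to 3 distally, 5 to 6 in WT, 3 to 5 in cKO and 0 for the interaction. With TMM factors the median log2 fold change of all genes proximally was -0.03, against 0.08 without them.

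With the sample name as a replicate block the interaction gave 460 genes and 1 member, Trpv6 (434 and 1 with the block as a random term), and no other member call changed. Between genotypes the numbers share only a label: with the number as block 1388 genes were called proximally and 4242 distally, and same-numbered libraries correlated at -0.148 to 0.0487. The causes of these shifts were not tested. Depth limits Trpv6 in distal libraries (0 to 8 reads), and the 3 libraries a group limit every interval.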

Other observations

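WT proximal library 1 was set beside the other WT proximal libraries over the genes that were higher in cKO distal than in cKO proximal libraries by more than 4 on the log2 scale (46 genes called in limma, chosen without WT libraries but after the level of Slc34a2 in that library had been seen). The log2 ratio of library 1 to the mean of WT proximal 2 and 3 had a median of -0.32 over these genes and was above 0 for 16 and above 1 for 7. Slc34a2 had the highest ratio (4.97), and the next was Enpp7, an alkaline sphingomyelinase gene (1.91).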
